A study of Mus musculus with 10 samples.

Results

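The genes described here encode subunits of respiratory complexes II to V and cytochrome c. Members were picked out by symbol: Sdha to Sdhd, symbols beginning with Uqcr, Atp5 or Cox4 to Cox8 followed by a letter, Cyc1 and Cycs. Of 30142 genes with a row that named them alone, 52 were members, each read from its brightest row over the 10 arrays. RNA came from mouse brain 7 days after a 2 mm controlled cortical impact, a brain injury made by pressing a driven tip into the cortex on one side. The 5 ipsilateral samples came from the injured side, and the 5 contralateral samples from the corresponding region of the uninjured hemisphere. All mice were adults 8 to 12 weeks old, bought from Charles River. The labels name both sexes and give no strain, genotype or drug treatment. Each sample was hybridised to 1 Affymetrix whole-transcript array. There was no sham-operated group, so both sides come from impacted brains.

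Complex II (succinate dehydrogenase) passes electrons from succinate to ubiquinone, complex III passes them from ubiquinol to cytochrome c, and complex IV passes them from cytochrome c to oxygen. Complexes III and IV pump protons across the inner mitochondrial membrane, and complex V (ATP synthase) lets them flow back to make ATP. In brain this chain meets most of the ATP demand of ion pumping and synaptic transmission. Parvalbumin interneurons, which fire fast, are known for a high content of mitochondria.

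Over the whole series, 1305 genes were lower and 369 higher at the impact site, which is 4.33% and 1.22% of the genes tested (limma, Benjamini-Hochberg adjusted p under 0.05). The median log2 signal per array over all rows of the table was 4.79 to 4.84 ipsilaterally and 4.71 to 4.77 contralaterally, so an offset between arrays and the side cannot be told apart. The female-specific transcript Xist stood at 4.53 to 4.67 on all arrays, and the Y-linked genes Uty, Kdm5d and Eif2s3y at 7.75 to 8.88, although the labels name both sexes. The mean log2 signal of 9 neuronal markers was 13.56 to 14.14 per array. No array held the same values as another. The series describes 5 biological replicates per side and does not say which samples came from the same animal.

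Of the 52 members, 48 are genes of protein subunits and 4 are pseudogenes or copies (Uqcrh-ps1, Atp5c1-ps, Atp5l-ps1 and Atp5l2). Atp5c1, the gene of the F1 gamma subunit, was not analysed here. Levels of respiratory chain transcripts differed little between the sides. The heart and muscle isoform of a complex IV subunit, Cox6a2, was the single member to pass the test, and it fell at the impact site. Members called thus made up 1.92%, against 5.55% of all genes, and 0 members rose. At an unadjusted p under 0.05 there were 8 members (15.4%), against 21.3% of all genes. The median log2 difference, ipsilateral minus contralateral, was -0.05 over the 48 subunit genes and 0.02 over all genes. Differences ranged from -0.43 (Cox6a2) to 0.26 (Atp5g1). Of the subunit genes 31 had a negative and 17 a positive difference.

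The intervals of these differences were narrow. For 44 of the 48 subunit genes (91.7%) the 95% interval lay within 0.5 of 0 on the log2 scale, which is a 1.41-fold change either way. This held for 77.8% of all genes tested. The other 4 were Cox6a2, Cycs, Uqcr10 and Atp5g1, and no interval of a subunit gene reached beyond -0.66 or 0.53. Among the genes with a mean log2 signal of 10 or more, 26 of 28 subunit genes (92.9%) had such an interval, against 58.5% of 4232 genes in all. In bulk tissue, fewer cells of a type and less RNA per cell cannot be told apart.

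**Figure D1:**
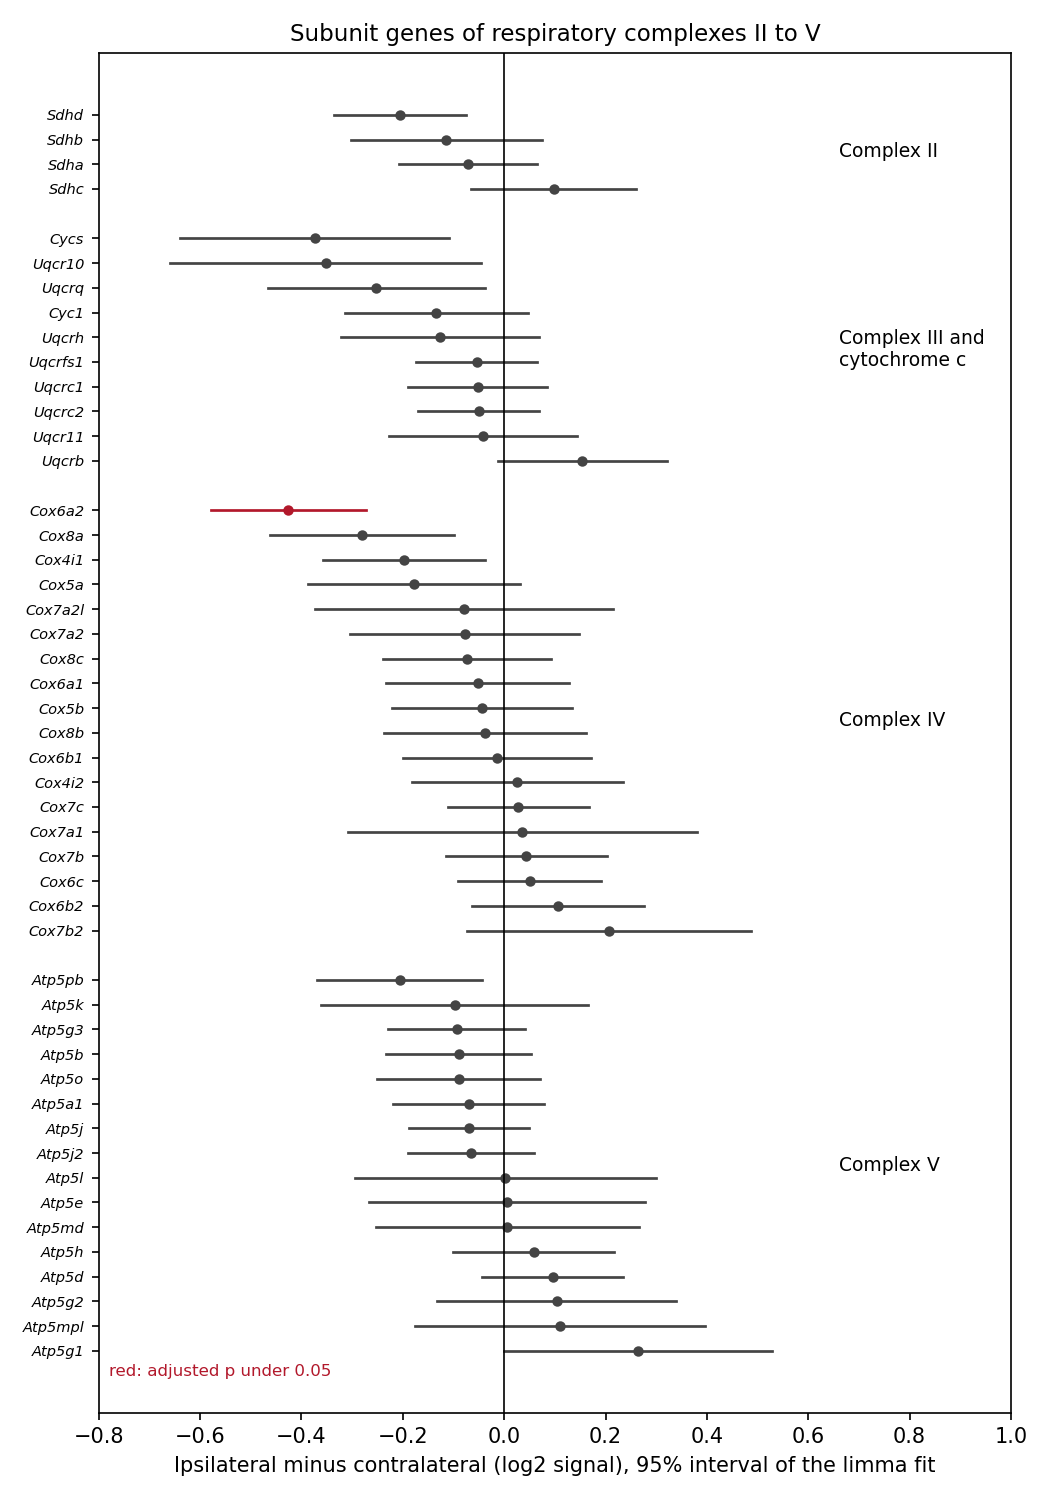
Difference between the sides for the 48 subunit genes, grouped by complex. Points are ipsilateral minus contralateral log2 signal and lines are 95% intervals of the limma fit over 5 arrays per side. The red point, Cox6a2 at -0.43, is the single gene with an adjusted p under 0.05, and most intervals of the others include 0.

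Promoter letters were read because nuclear genes of the respiratory chain are known targets of the factors NRF1, GABPA and YY1. Cox6a2, the single member called, had no promoter entry, so its own letters were not read. The genes printed below did not pass the test. The 250 bases before the RefSeq start (GRCm38.p6) are printed for Cox6a1, the widely expressed partner of Cox6a2 (chr5:115348959-115349208, minus strand), for Sdhd (chr9:50603850-50604099, minus strand) and for Cox8a (chr19:7217617-7217866, minus strand). Sdhd and Cox8a had the strongest statistics among the members that did not pass. Capitals mark matches to the NRF1 letters, which are GCGC, any base N and then TGCGC, or to the GABPA letters CCGGAAG on either strand.
Cox6a1: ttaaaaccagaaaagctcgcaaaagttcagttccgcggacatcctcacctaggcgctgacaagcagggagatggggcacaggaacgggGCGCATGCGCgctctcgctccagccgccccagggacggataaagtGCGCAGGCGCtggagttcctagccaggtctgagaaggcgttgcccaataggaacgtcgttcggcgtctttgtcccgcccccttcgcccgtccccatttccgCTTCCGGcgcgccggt
Sdhd: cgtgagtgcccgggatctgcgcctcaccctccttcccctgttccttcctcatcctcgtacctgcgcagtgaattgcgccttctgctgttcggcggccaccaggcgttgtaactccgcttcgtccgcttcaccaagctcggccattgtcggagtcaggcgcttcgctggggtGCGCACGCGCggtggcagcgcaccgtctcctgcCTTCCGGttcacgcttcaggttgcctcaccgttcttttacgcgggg
Cox8a: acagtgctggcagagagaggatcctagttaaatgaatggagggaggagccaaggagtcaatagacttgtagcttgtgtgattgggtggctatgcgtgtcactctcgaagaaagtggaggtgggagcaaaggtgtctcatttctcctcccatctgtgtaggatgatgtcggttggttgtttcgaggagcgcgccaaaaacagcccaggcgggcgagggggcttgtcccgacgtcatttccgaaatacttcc
Cox6a1 held 2 NRF1 matches and 1 GABPA match, Sdhd held 1 of each, and Cox8a held no match to these letters. Matches to different motifs did not overlap.

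The table of promoters had entries for 32 of the subunit genes outside the tissue-restricted isoforms, with 34 starts, and for 4 restricted isoforms (Cox6b2, Cox7a1, Cox7b2 and Cox8b). The NRF1 letters were found in 6 of the 34 (17.6%), against 3.74% of 32851 promoters in all. The GABPA letters were found in 9 of them (26.5%), against 6.91%. The YY1 letters AAGATGG were found in 1 of 34 (2.94%, against 4.49%). The TATA box letters TATAAA were found in 2 of 34 (5.88%, against 12.4%) and the E-box letters CAGCTG in 1 of 34 (2.94%, against 13.0%). Differences in these shares were not tested, and counts of 1 or 2 are too small to show that letters are rarer. None of the 4 restricted isoforms had the NRF1 or GABPA letters, while Cox7b2 had the TATA box letters and Cox8b the E-box letters. Motifs were searched on both strands, and a match is a description of letters, not of binding.

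Complex II has 4 subunits, all nuclear, and none passed the test. Sdhd encodes a membrane anchor of the complex. Its log2 signal was 9.88, 9.90, 9.89, 9.99 and 10.03 on ipsilateral arrays 1 to 5, and 10.15, 10.20, 10.02, 10.12 and 10.23 on contralateral arrays 1 to 5. Both groups overlapped only through ipsilateral array 5 and contralateral array 3. The difference was -0.21 ± 0.06 (SE of the fit, adjusted p = 0.0710). With each array centred on its median the adjusted p of Sdhd was 0.0148. It was 0.0411 without the dimmer 50% of genes and 0.0394 among protein-coding genes alone. With quantile and cyclic loess scaling the difference shrank to -0.15 and -0.12 (adjusted p = 0.187 and 0.313). The iron-sulfur subunit gene Sdhb stood at 10.13 ± 0.15 against 10.25 ± 0.12 (mean ± SD, n = 5 per side). Sdha, which encodes the flavoprotein that oxidises succinate, stood at 12.60 ± 0.09 against 12.67 ± 0.07. Sdhc, the other membrane anchor, stood at 8.66 ± 0.14 against 8.57 ± 0.08. The adjusted p of these 3 genes ran from 0.490 to 0.556.

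None of the 9 measured complex III subunit genes passed, nor did Cycs, which encodes cytochrome c. The median difference over these 10 genes was -0.09, and 9 of the 10 differences were negative. Cycs stood at 14.38, 14.26, 14.16, 14.11 and 14.20 ipsilaterally and at 14.87, 14.45, 14.26, 14.52 and 14.88 contralaterally. Contralateral array 3 lay inside the ipsilateral range, and the other 4 contralateral arrays lay above it. The difference was -0.37 ± 0.12 (adjusted p = 0.103), and with median centring of the arrays it was -0.44 (adjusted p = 0.0439), against -0.41 with quantile scaling (0.0618) and -0.35 with cyclic loess (0.102).

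The brightest row of Cycs carried an identifier of chromosome 19, whereas RefSeq places the gene on chromosome 6. The row at chromosome 6 gave a difference of -0.26 ± 0.08 (adjusted p = 0.0867), with 12.40 to 12.62 ipsilaterally and 12.64 to 12.95 contralaterally, so the groups did not overlap there. Cycs has near-identical copies in the genome, and which transcripts each row reads was not tested.

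Among the small subunits that lie around the catalytic core of complex III, Uqcr10 and Uqcrq had the largest differences. Uqcr10 stood at 8.01, 8.06, 7.53, 8.12 and 7.92 ipsilaterally and 8.33, 8.17, 8.30, 7.96 and 8.64 contralaterally, a difference of -0.35 ± 0.14 (adjusted p = 0.175). The lowest of its values was ipsilateral array 3, and contralateral array 4 lay within the ipsilateral range. Uqcrq, which encodes a ubiquinone-binding small subunit, differed by -0.25 ± 0.10 (adjusted p = 0.165). Uqcrb, another small subunit gene, was the only one of the 10 with a positive difference, at 0.15 ± 0.08 (adjusted p = 0.273).

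The genes of the catalytic and core proteins of complex III differed less. Cyc1, which encodes cytochrome c1, had a difference of -0.13 ± 0.08. The Rieske iron-sulfur protein gene Uqcrfs1 had -0.05 ± 0.05, and the core protein genes Uqcrc1 and Uqcrc2 had -0.05 ± 0.06 and -0.05 ± 0.05. Uqcrh, for the hinge protein, had -0.13 ± 0.09 and Uqcr11 -0.04 ± 0.08. The adjusted p of these 6 genes ran from 0.389 to 0.833.

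Complex IV held the single call. Several of its nuclear subunits exist as a widely expressed isoform and one restricted to tissues such as heart, skeletal muscle or testis. Cox6a2 encodes the heart and muscle form of subunit 6A, and in brain it is known as a gene of parvalbumin interneurons. Its log2 signal was 5.41, 5.67, 5.50, 5.52 and 5.53 on ipsilateral arrays 1 to 5, and 6.01, 5.89, 5.93, 5.83 and 6.10 on contralateral arrays 1 to 5. Every ipsilateral value lay below every contralateral one. The difference was -0.43 ± 0.07 (95% interval -0.58 to -0.27, adjusted p = 0.00601 in limma), which is -25.6% on the linear scale. Cox6a2 was dim: on 4 of 5 ipsilateral arrays, and on 0 of 5 contralateral arrays, it lay below the median of that array over the genes tested (5.48 to 5.65 over the 10 arrays). Whether the ipsilateral signal stood above background is not known, so the size of the difference carries that limit. Cox6a2 passed in all 22 other fits made, which include each array left out in turn, with adjusted p from 0.00171 to 0.0418 and differences from -0.49 to -0.39.

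Of 5 markers read for parvalbumin interneurons, 2 passed (40.0%, against 5.55% of all genes) and 3 did not. Pvalb, which encodes the calcium buffer parvalbumin, stood at 6.49, 6.63, 6.01, 6.76 and 7.04 ipsilaterally and at 8.71, 8.47, 8.68, 7.48 and 8.78 contralaterally. It fell by 1.84 ± 0.26 (adjusted p = 0.00305), and its groups did not overlap. Kcnc1, a potassium channel gene of fast-spiking cells, fell by 0.58 ± 0.13 (adjusted p = 0.0267), and its call ended in 8 of the other fits (adjusted p up to 0.0706), among them those without ipsilateral array 2 or 5 or without contralateral array 1, 2, 3 or 5. The remaining 3 of the 5 markers did not pass. These were Gad1 (0.21, adjusted p = 0.855) and Gad2 (0.60, adjusted p = 0.332), which make GABA, and its vesicular transporter Slc32a1 (0.05, adjusted p = 0.959). These 3 genes mark GABA neurons of every kind. Ipsilateral array 1 stood apart for them, with Gad1 at 14.65 against 11.72 to 12.35 on the other ipsilateral arrays. Without it the differences were -0.33 for Gad1, -0.27 for Slc32a1 and 0.33 for Gad2 (adjusted p = 0.17, 0.483 and 0.5), so those of Gad1 and Slc32a1 turned. The 2 that passed, Pvalb and Kcnc1, averaged 7.36 to 7.81 ipsilaterally and 8.23 to 8.98 contralaterally. Neither gene overlapped on its own, so their average could not overlap. The mean of all 5 markers ran from 9.72 to 11.09 ipsilaterally, the highest being array 1, and from 10.21 to 10.57 contralaterally. The array with the lowest contralateral Pvalb, array 4, also had the lowest contralateral Cox6a2, whereas the lowest ipsilateral values of the 2 genes were on different arrays (3 and 1). The part of a change in these cells in the Cox6a2 result was not tested.

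Because Cox6a2 is also a muscle gene, markers of skeletal muscle were read on the same arrays. None of 6 passed, and the mean of their log2 signals was 4.79 to 5.03 ipsilaterally and 4.89 to 5.06 contralaterally. The skeletal actin gene Acta1 had a difference of -0.24 ± 0.07 (adjusted p = 0.0754), and it passed in 6 other fits, among them median centring (adjusted p = 0.0132). The muscle myosin gene Myh1 had -0.08 ± 0.06 (adjusted p = 0.506). The part of muscle RNA in the Cox6a2 result was not tested.

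**Figure D2:**
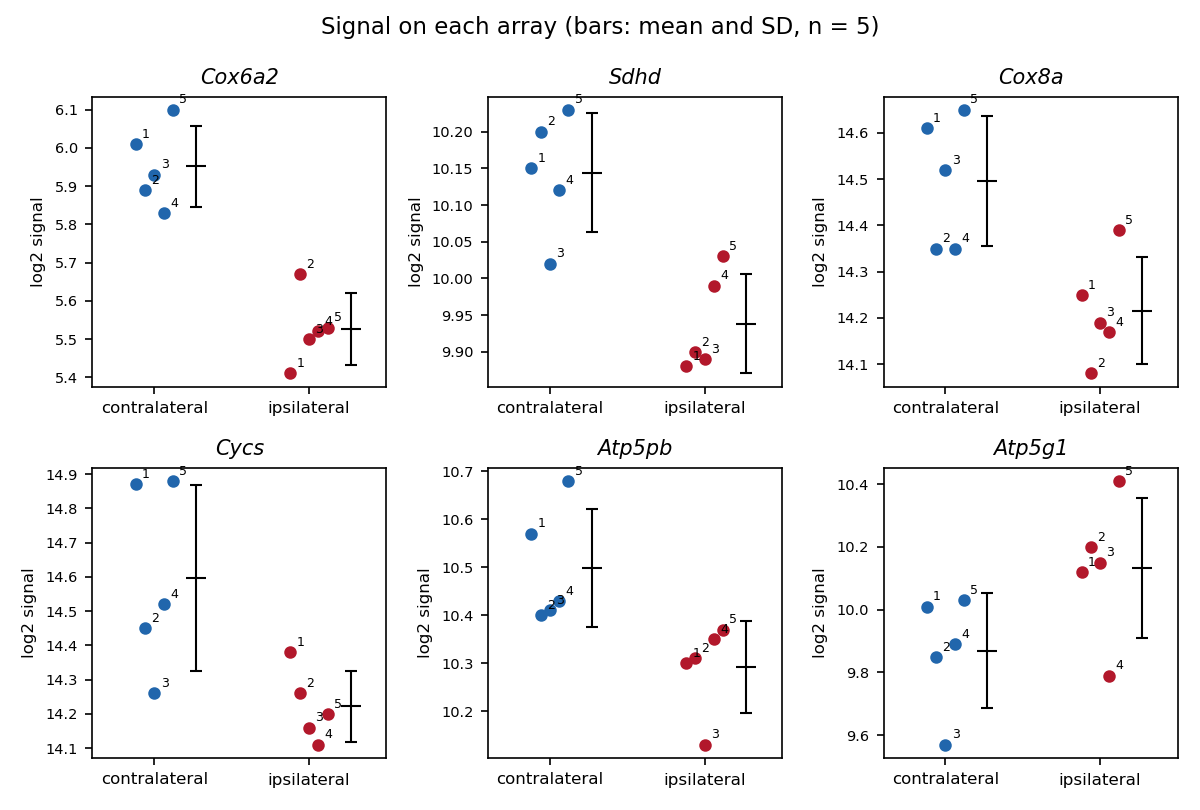
Log2 signal of 6 members on each array, with replicate numbers beside the points and the mean and SD of each side as bars (n = 5 per side). Cox6a2 and Atp5pb are the 2 members whose sides do not overlap, and Atp5g1 has the largest positive difference.

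The widely expressed subunits of complex IV did not pass. Cox8a, a short subunit that crosses the membrane once, stood at 14.25, 14.08, 14.19, 14.17 and 14.39 ipsilaterally and 14.61, 14.35, 14.52, 14.35 and 14.65 contralaterally. Ipsilateral array 5 lay above contralateral arrays 2 and 4, and no other values crossed. The difference was -0.28 ± 0.08 (adjusted p = 0.0774). It passed with quantile scaling (-0.31, adjusted p = 0.0289), with median centring (-0.34, 0.0199), without the dimmer 50% of genes (0.0479) and among protein-coding genes alone (0.0477), and not with cyclic loess (-0.26, 0.0712). Cox4i1, the common form of the largest nuclear subunit, had -0.20 ± 0.07 (adjusted p = 0.146, with 0.0249 after median centring, 0.139 after quantile scaling and 0.27 after cyclic loess). Cox5a, a matrix-side subunit, had -0.18 ± 0.09 (adjusted p = 0.316). Ipsilateral array 1 of Cox5a, at 11.78, lay above all contralateral values of 11.49 to 11.74, and without this array the difference was -0.26 (adjusted p = 0.0436, in a fit where 5.33% of all genes were lower).

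The other 8 widely expressed genes of complex IV differed by -0.08 to 0.05, with adjusted p from 0.713 to 0.949. They included Cox6a1, the partner of Cox6a2, at 14.38 ± 0.13 against 14.43 ± 0.13. Cox7a2l, whose product joins complexes III and IV into supercomplexes, stood at 11.96 ± 0.21 against 12.04 ± 0.25. The other 6 were Cox5b, Cox6b1, Cox6c, Cox7a2, Cox7b and Cox7c.

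The other tissue-restricted isoforms gave no call. Cox4i2, a lung form of subunit 4, stood at 5.78 ± 0.10 against 5.75 ± 0.20. Its difference of 0.03 turned to -0.0328 with quantile scaling, to -0.036 with median centring and to -0.0107 with cyclic loess. Cox7a1, the heart and muscle form of subunit 7A, stood at 6.66, 6.72, 6.33, 7.37 and 6.77 ipsilaterally and 6.68, 6.66, 6.74, 6.71 and 6.88 contralaterally. Ipsilateral array 4 was the highest of the 10 and array 3 the lowest. Without array 4 the difference was -0.11 in place of 0.04. Cox6b2 (4.81 ± 0.16 against 4.70 ± 0.03), Cox8b (3.40 ± 0.16 against 3.44 ± 0.13) and Cox8c (4.27 to 4.54 against 4.33 to 4.63) were dimmer than the array medians over the genes tested (5.48 to 5.65), and whether they rose above background is not known. So was Cox7b2, at 5.00 ± 0.27 against 4.80 ± 0.16. The median difference of the 7 restricted isoforms was 0.03.

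Whether isoforms of a subunit changed unequally was asked with the difference between both genes on the same array. This is free of a constant offset of the whole array, but not of shifts that depend on signal level. Cox6a2, for 1, lay far below Cox6a1 in signal. For 7 pairs an exact two-sided permutation test over the 252 ways to divide 10 arrays into 5 and 5 was used, with a smallest possible p of 0.00794. Cox6a2 minus Cox6a1 was -8.64 to -9.01 ipsilaterally and -8.33 to -8.61 contralaterally, with no overlap, so Cox6a2 was lower relative to Cox6a1 by 0.37 on average. The exact permutation p was 0.00794, and 0.0556 after adjustment over the 7 pairs. The SE of that difference was 0.0849. Atp5g1 minus Atp5g3, which encode the same ring protein of ATP synthase, differed by 0.36 ± 0.13 (exact permutation p = 0.0238, adjusted 0.0741). Cox4i2 minus Cox4i1 differed by 0.22 ± 0.08 (exact permutation p = 0.0317, adjusted 0.0741) and Atp5g2 minus Atp5g3 by 0.20 ± 0.10 (exact permutation p = 0.0476, adjusted 0.0833). Cox8b minus Cox8a (0.24 ± 0.14), Cox6b2 minus Cox6b1 (0.12 ± 0.08) and Cox7a1 minus Cox7a2 (0.11 ± 0.14) had adjusted exact permutation p of 0.133, 0.269 and 0.627. No pair passed after adjustment, but a pair that is alone at the smallest possible p is adjusted to 0.0556. With the p of the other pairs as they were, Cox6a2 minus Cox6a1 could therefore not have passed at any size. Its adjusted p would have been lower had another pair shared the smallest p. Whether Cox8b and Cox6b2 rose above background is not known, so those pairs do not show whether the isoforms changed unequally. The pair of Cox6a2 carries the same limit, since that gene lay below the array median on 4 of 5 ipsilateral arrays. Cox4i2, at 5.78 against 5.75, stood near the array medians too.

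**Figure D3:**
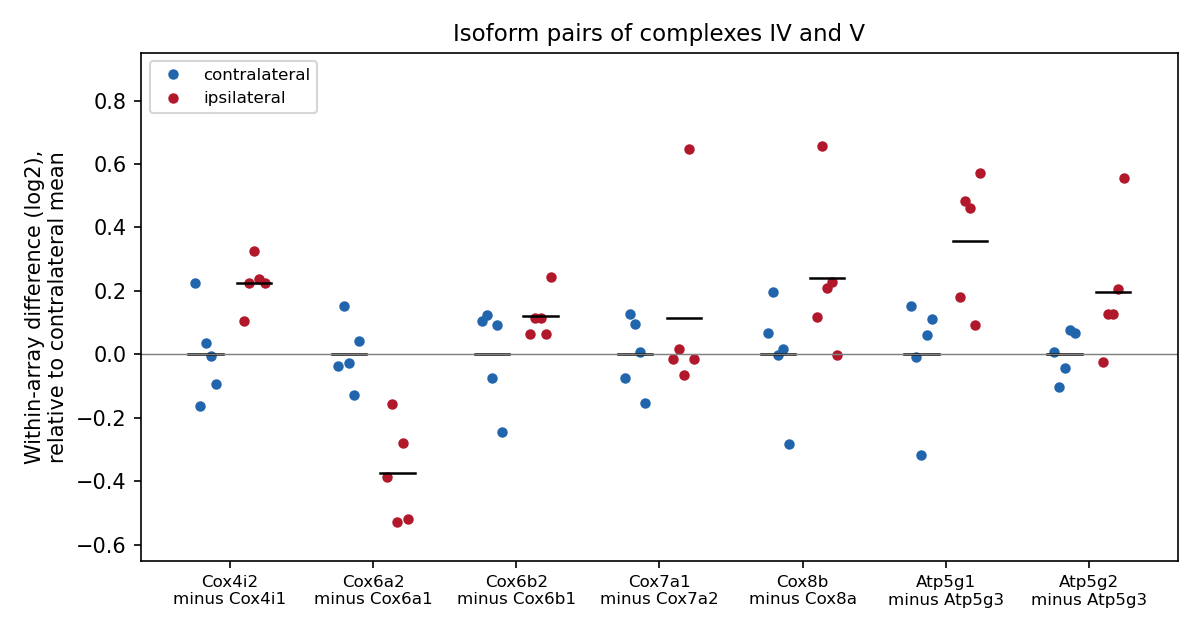
Difference in log2 signal between the genes of each isoform pair on the same array, shown relative to the contralateral mean of the pair. Points are arrays (5 per side) and black lines are means. Cox6a2 minus Cox6a1 is the pair whose sides do not overlap, at -0.37 on average, and ipsilateral array 4 sets the mean of Cox7a1 minus Cox7a2.

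Complex V is built from a catalytic F1 head, a ring of c subunits in the membrane, a peripheral stalk that holds the head still, and small membrane subunits that shape the dimer. None of its 16 measured subunit genes passed, with 8 differences positive, 8 negative and a median of -0.03. In the F1 head, Atp5a1 (alpha) differed by -0.07 ± 0.07 and Atp5b (beta, which carries the catalytic sites) by -0.09 ± 0.06. Atp5d (delta) had 0.10 ± 0.06 and Atp5e (epsilon) 0.01 ± 0.12. The difference of Atp5d was -0.10 when its rows were averaged, in place of its brightest row.

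The peripheral stalk held the only other member whose groups did not overlap. Atp5pb, the gene of subunit b, stood at 10.30, 10.31, 10.13, 10.35 and 10.37 ipsilaterally and 10.57, 10.40, 10.41, 10.43 and 10.68 contralaterally. The highest ipsilateral and the lowest contralateral value were 0.03 apart. The difference was -0.21 ± 0.07 (adjusted p = 0.138). It was -0.27 with median centring (adjusted p = 0.0235), -0.15 with quantile scaling (0.246) and -0.12 with cyclic loess (0.426). Members without overlap were thus 2 of 52 (3.85%), both lower, against 7.25% of all genes (5.21% lower and 2.04% higher). Atp5o, the gene of the stalk protein that binds the F1 head, had -0.09 ± 0.07, Atp5j -0.07 ± 0.05 and Atp5h 0.06 ± 0.07.

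The 3 genes of the c ring encode an identical mature protein behind different import signals. Atp5g1 stood at 10.12, 10.20, 10.15, 9.79 and 10.41 ipsilaterally and 10.01, 9.85, 9.57, 9.89 and 10.03 contralaterally, a difference of 0.26 ± 0.12 (adjusted p = 0.236). Ipsilateral arrays 1, 2, 3 and 5 lay above every contralateral array, and ipsilateral array 4 lay below all of them but array 3. Atp5g2 differed by 0.10 ± 0.11, with ipsilateral array 5 highest at 13.23, and by -0.001 without that array. Its brightest row carried an identifier of chromosome 7, and its row at the gene's own place on chromosome 15 gave 0.07 ± 0.10. Atp5g3 differed by -0.09 ± 0.06 (adjusted p = 0.423).

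None of the 5 small membrane subunits of complex V passed (adjusted p from 0.554 to 0.997). Atp5l (subunit g) stood at 13.70 ± 0.25 against 13.70 ± 0.22, Atp5md at 13.76 ± 0.21 against 13.76 ± 0.19, and Atp5mpl at 12.96 ± 0.25 against 12.85 ± 0.20. Atp5k (subunit e) and Atp5j2 (subunit f) had differences of -0.10 ± 0.12 and -0.07 ± 0.06. The brightest row of Atp5l carried an identifier of chromosome 5, while the gene lies on chromosome 9, where its row had a mean of 6.23 over the 10 arrays and a difference of 0.02 ± 0.08. Atp5l-ps1 and Atp5l2 are copies of Atp5l, and whether their rows share signal with it was not tested. None of the 4 pseudogenes or copies passed (differences of -0.04 to 0.06).

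Many members deviated together on single arrays. Contralateral array 5 had the highest contralateral value for 34 of the 48 subunit genes, and contralateral array 2 the lowest for 25. Ipsilateral array 3 had the lowest ipsilateral value for 27 of them. As a mean deviation from each gene's own 10-array mean, the subunit genes stood at -0.03, -0.05, -0.14, 0.05 and 0.03 on ipsilateral arrays 1 to 5 and at 0.06, -0.08, -0.01, -0.01 and 0.17 on contralateral arrays 1 to 5. The sides overlapped in this mean. The array medians over all genes tested were, within their side, likewise lowest on ipsilateral array 3 (5.52) and highest on ipsilateral array 4 (5.65) and contralateral array 5 (5.56), and low on contralateral array 2 (5.49), so the deviations are not shown to be particular to the members. Without contralateral array 5 the median difference of the subunit genes was -0.03, and without ipsilateral array 3 it was -0.04. It was negative in every fit made, from -0.12 with median centring to -0.003 with cyclic loess scaling, while the median over all genes was -0.04 and 0.01 in those fits.

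**Figure D4:**
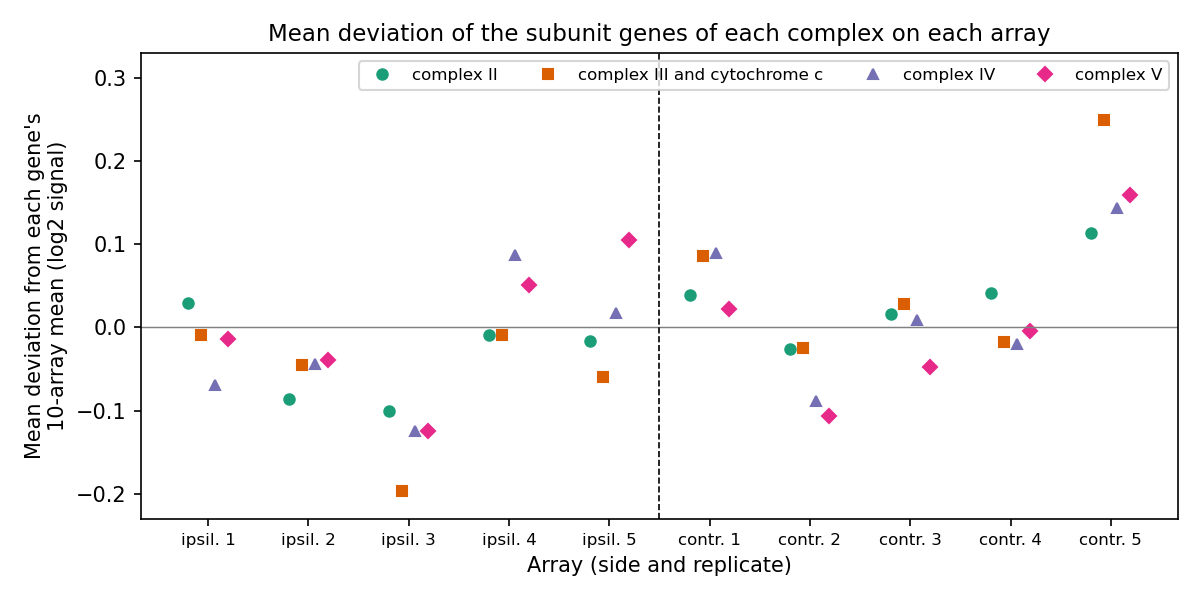
Mean deviation of the subunit genes of each complex from their own 10-array means, in log2 signal, on each array. Ipsilateral arrays are left and contralateral arrays right of the dashed line. All 4 complexes are high on contralateral array 5 (0.11 to 0.25) and low on ipsilateral array 3 (-0.20 to -0.10).

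The count of lower members depended on how arrays were scaled and which genes were tested. It was 6 with median centring (Cox6a2, Cox8a, Sdhd, Cycs, Cox4i1 and Atp5pb), where 7.07% of all genes were lower, and 2 with quantile scaling (Cox6a2 and Cox8a), where 3.69% were. It was 3 (Cox6a2, Cox8a and Sdhd) without the dimmer 50% of genes, where 10.9% of those tested were lower, and the same 3 among protein-coding genes alone, where 8.31% were.

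Of 104 other genes of mitochondrial energy metabolism 6 fell (5.77%, against 4.33% of all genes) and none rose. That share was near that of all genes in the main fit, but the count moved with the fit. It was 21 with median centring, where 7.07% of all genes were lower. It was 12 without ipsilateral array 1, where 5.33% were, and 4 with quantile scaling, where 3.69% were. Of 29 measured assembly and maturation factors of complexes II to V, 3 fell and none rose, with a median difference of -0.06. Lower genes were thus 10.3% of this list, against 4.33% of all genes. At an unadjusted p under 0.05 in limma there were 6 (20.7%), against 21.3% of all genes. Ttc19, which keeps complex III free of fragments of its Rieske protein, stood at 11.39 ± 0.13 against 11.77 ± 0.06 and fell by 0.38 ± 0.07 (adjusted p = 0.0133). Atpaf1, a chaperone of the F1 beta subunit, fell by 0.38 ± 0.07 (adjusted p = 0.0142), and Cmc1, a complex IV assembly factor, by 0.29 ± 0.06 (adjusted p = 0.0130). The groups of these 3 genes did not overlap. Cox20, a chaperone of complex IV assembly, had 0.25 ± 0.07 (adjusted p = 0.0545), also without overlap. Genes without overlap made up 13.8% of this list, against 7.25% of all genes.

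Of 33 nuclear complex I subunit genes, 1 fell (3.03%, against 4.33% of all genes), and the median difference was -0.08. The groups did not overlap for 4 of the 33 (12.1%, against 7.25% of all genes), all lower. Ndufs1, the largest subunit of complex I, fell by 0.27 ± 0.06 (adjusted p = 0.0387), a call that ended under 12 alternatives, among them every fit without 1 array save that without ipsilateral array 1 (adjusted p up to 0.168 in all). Ndufs3, a core subunit gene, had -0.19 ± 0.05 (adjusted p = 0.0510). Of 15 genes of pyruvate dehydrogenase and the TCA cycle none passed, 13 had negative differences, and the median was -0.14. At an unadjusted p under 0.05 in limma there were 9 of these 15 (60.0%), against 21.3% of all genes. For the 33 complex I genes the count was 7 (21.2%). The strongest were Suclg1, of succinyl-CoA ligase (-0.26 ± 0.07, adjusted p = 0.0583), and Fh1, fumarate hydratase (-0.24 ± 0.07, adjusted p = 0.0603). Of 12 regulators of mitochondrial biogenesis and DNA upkeep, Polg, the mitochondrial DNA polymerase, fell by 0.25 ± 0.06 (adjusted p = 0.0490), and it did not pass without any single array (adjusted p up to 0.113) except ipsilateral array 1. Tfam, which packages mitochondrial DNA, had -0.24 ± 0.06 (adjusted p = 0.0532).

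Of 15 genes of mitochondrial membrane transport and structure, Ckmt1, the mitochondrial creatine kinase that hands phosphate from ATP to creatine, stood at 9.34 ± 0.11 against 9.77 ± 0.11 and fell by 0.43 ± 0.08 (adjusted p = 0.00880). Tomm40, the pore of the outer membrane, had -0.25 ± 0.07 (adjusted p = 0.0568). It passed in some other fits, among them median centring (0.0209) and the fit without ipsilateral array 1 (0.0451). The median of that list was -0.03. The mitochondrially encoded subunits were not analysed here. These lists were composed from general knowledge with earlier results of these samples known.

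Some markers of cell types changed between the sides. Of 9 neuronal markers 3 fell (33.3%, against 4.33% of all genes). These were the neurofilament genes Nefm (-0.998 ± 0.17, adjusted p = 0.00663) and Nefl (-0.89 ± 0.18, adjusted p = 0.0166) and the neuronal nuclear gene Rbfox3 (-0.54 ± 0.10, adjusted p = 0.0102). The mean of the 9 ran from 13.56 to 14.01 ipsilaterally and from 13.92 to 14.14 contralaterally. Of 6 astrocyte markers the water channel gene Aqp4 rose by 0.95 ± 0.18 (adjusted p = 0.0117), and Slc1a3, a glutamate transporter, had 0.47 (adjusted p = 0.0623). Gfap, the filament gene of reactive astrocytes, had the largest difference of the list at 2.07 (adjusted p = 0.0814, and 0.0201 without ipsilateral array 1). Aldh1l1, a folate enzyme gene, and the glutamate transporter gene Slc1a2 had -0.36 and -0.15 (adjusted p = 0.121 and 0.454), and S100b had 0.07. Of 4 fibroblast markers the collagen gene Col1a1 rose by 0.80 ± 0.19 (adjusted p = 0.0398) and the proteoglycan gene Dcn by 2.88 ± 0.63 (adjusted p = 0.0250). The call of Col1a1 ended without ipsilateral array 3 or 4 or any 1 contralateral array (adjusted p up to 0.0963). That of Dcn ended without ipsilateral array 2, 4 or 5 or contralateral array 1, 3 or 5 (adjusted p up to 0.0672).

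None of 11 markers of microglia and macrophages passed, with a median difference of 0.90 and C1qb, a complement subunit, at 1.83 (adjusted p = 0.0580). Ptprc, the pan-leukocyte phosphatase CD45, had 0.84 (adjusted p = 0.0769). All 11 differences were positive, and 10 of them (90.9%) had an unadjusted p under 0.05 in limma, against 21.3% of all genes. Without ipsilateral array 1 C1qb and Ptprc passed (adjusted p = 0.0178 and 0.0139), in a fit where 760 of all genes were higher. None of 5 oligodendrocyte markers passed, with a median of -1.19 and the myelin genes Mog at -1.32 and Mag at -1.19 (adjusted p = 0.0537 and 0.0814). All 5 differences were negative, and 4 of them (80.0%) had an unadjusted p under 0.05 in limma. Mog and Mag passed in some other fits. Among these were median centring (adjusted p = 0.0292 and 0.0488) and the fit without contralateral array 4 (0.0185 and 0.0173). None of 4 endothelial markers passed, with Flt1 at -0.36 and Cldn5 at 0.37 (adjusted p = 0.108 and 0.225). The choroid plexus gene Ttr ranged from 5.83 to 15.87 ipsilaterally and from 7.19 to 16.54 contralaterally, and Kl, also of choroid plexus, had a difference of 0.37 (adjusted p = 0.885). The single erythroid marker measured, Alas2, stood at 4.60 ± 0.10 against 4.57 ± 0.14. The part of these shifts in the levels of the respiratory genes was not tested.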

How the data were processed

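Total RNA from 10 brain samples, 5 per side, was isolated with a Qiagen kit and labelled for Affymetrix whole-transcript arrays, per the labels' protocols. Per the submitters' processing notes, the authors used Transcriptome Analysis Console 4.0 to make the deposited log2 signals. How signals were background-corrected, normalized and summarized, and on which genome build, is not given in the sources used here. That the scale is log2 follows from the range (1.97 to 19.93). Of 65956 rows, 30604 named 1 gene symbol in the array annotation used here. Symbols were updated by Entrez identifier from the RefSeq table of GRCm38.p6 (22815 rows matched, 827 updated), which brought in Uqcrh-ps1 and left out the row once named Atp5sl, now Dmac2. The brightest row per gene was kept, and 462 dimmer rows and rows naming several genes were left out. Row identifiers named the RefSeq chromosome for 99.47% of rows checked.

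Ipsilateral minus contralateral was fitted over all 30142 genes with lmFit and default eBayes of limma (version 3.58.1, run in R 4.3.3 beside statmod 1.5.0), two-sided, with Benjamini-Hochberg adjustment over all genes and a threshold of 0.05. The adjusted p-values in the text are from this fit unless a permutation test is named. The fit was also run on simulated arrays with noise independent between genes. Many members deviated together on the real arrays, so that run does not cover such shifts. The number of arrays limits the precision. P-values set the difference between the sides against the spread between these samples, with all arrays taken as independent. Whether a mouse gave both sides is not stated. Named members were those called, the 4 with the largest moderated statistic per complex, the restricted isoforms and the c ring genes, and in each list the 2 with the largest statistic; other members and called or marker genes were named after their values were seen. The members and lists were chosen with earlier results of these data known. Alternatives were the replicate block (fixed or random), weighted arrays, a trended robust variance, other scalings (cyclic loess, quantile, median), no genes among the dimmest 25% or 50%, a gene's mean over rows, 0.01 as the threshold, and leaving out each array. Rows at the gene's own locus and protein-coding genes alone were added after the data had been seen. No batch was given in the labels.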

Additional observations from a re-analysis of the deposited data

Results flagged for a closer look

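In 56 groups of 5 arrays (21 named members and 7 isoform pairs, each on both sides), 5 held an array far from the other 4, where chance gives about 1 in 20 groups. Ipsilateral array 1 stood apart for Cox5a (11.78, next 11.42) and ipsilateral array 2 for Cox8b (3.68, next 3.34), a gene below every array median. Ipsilateral array 5 stood apart for Atp5g2 (13.23, next 12.75) and for Cox6b2 minus Cox6b1 (-9.27, next -9.40). Ipsilateral array 4 stood apart for Cox7a1 minus Cox7a2 (-5.83, next -6.46). All 5 were on the ipsilateral side.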

How the results depend on the processing

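Of the alternatives, none turned the direction of the Cox6a2 difference or ended its call, and no member rose under any. The count of lower members (1) was 2 with quantile scaling, 6 with median centring, 3 without the dimmer 50% of genes and 3 among protein-coding genes alone, and 1 to 2 without single arrays (2 without ipsilateral replicate 1, by Cox5a). Over the mitochondrial lists, 6 genes were lower and 0 higher. Over all genes tested, 1305 were lower in the main fit, 1614 with array weights and 2130 with median centring. The same count was 1474 and 1637 without the dimmer 25% and 50%, 537 at 0.01 and 1563 among protein-coding genes alone. In the mitochondrial lists, the count of lower genes was 12 with array weights, 21 with median centring, and 11 and 12 without the dimmer 25% and 50%. It was 1 at a threshold of 0.01, 12 among protein-coding genes alone, and 4 to 12 without single arrays. There was 1 higher with array weights, quantile or cyclic loess scaling, without the dimmer 25% or 50% and among protein-coding genes, and 0 to 0 without single arrays. Over the cell type lists, 5 were lower (9 with median centring, 2 at 0.01, 3 to 9 without single arrays) and 3 higher (7 with array weights, 5 without the dimmer 50%, 0 at 0.01, 1 to 12 without single arrays).

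Over all genes, same-numbered deviations correlated at 0.26, 0.25, -0.04, -0.40 and -0.03. Of 5 ipsilateral arrays, 1 correlated best with its own number. The choroid plexus genes did follow the number. Ttr was highest on arrays 2 and 4 on both sides (15.87 and 13.64 ipsilaterally, 16.54 and 12.66 contralaterally), as were Clic6 and Kl. Whether same-numbered arrays share an animal is not known. The replicate block left 769 of all genes lower, against 1305 in the main fit. With this block, 1 member was lower and 2 genes of the mitochondrial lists were. Cox6a2 passed (adjusted p = 0.0418), while Ttc19 (0.0733), Cmc1 (0.0792), Ndufs1 (0.109), Polg (0.109) and Col1a1 (0.112) did not. A sign-flip test of the isoform pairs over same-numbered arrays, whose smallest p is 0.0625, cannot reach 0.05.

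Isoform differences without single arrays were -0.43 to -0.34 for Cox6a2 minus Cox6a1 (adjusted exact permutation p 0.0278 to 0.111), 0.28 to 0.42 for Atp5g1 minus Atp5g3, 0.11 to 0.25 for Atp5g2 minus Atp5g3 and -0.019 (without ipsilateral replicate 4) to 0.16 for Cox7a1 minus Cox7a2. The adjusted p was 0.0278 for Cox6a2 minus Cox6a1 without ipsilateral replicate 1 or 4, for Atp5g1 minus Atp5g3 without 4 and for Atp5g2 minus Atp5g3 without 1. Reversals of single genes that had not passed were, in log2, Atp5d with the mean of rows (-0.10), Cox4i2 with array weights (-0.0032) or quantile (-0.0328), median (-0.036) or loess scaling (-0.0107), Cox7a1 with median centring (-0.026), Alas2 with quantile (-0.0282), median (-0.036) or loess scaling (-0.017), and Ttr with array weights (0.88). Without single arrays, differences ran from -0.0495 to 0.0805 for Cox4i2, -0.11 to 0.146 for Cox7a1, -0.108 to 0.0075 for Cox8b, -0.001 to 0.144 for Atp5g2, -0.0165 to 0.08 for Alas2, -2.03 to 1.08 for Ttr and -0.18 to 1.38 for Kl. Of 1094 refits of single named genes, 948 kept direction and side of the threshold, 49 lost the call, 72 gained one and 25 turned sign. The cause was not tested. Signal over background was not given, which limits what dim rows such as Cox8b and Cox8c show.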

Other observations

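Outside the members, the genes whose deviations from their side means followed the mean of the 48 subunit genes most closely over the 10 arrays were Seh1l, a nuclear pore component (Pearson r = 0.990), Gm23376 (0.986), Acsm4 (0.983), Gm5644 (0.977) and Gm23626 (0.970). These were the highest of all genes searched, and the arrays share their processing, so the values are a description. Gm23376 and Acsm4 had mean log2 signals of 4.45 and 3.90, below every array median over the genes tested (5.48 to 5.65). Whether these dim rows rose above background is not known. Gm23626, at 5.80, stood near those medians.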
